A study of Mus musculus with 7 samples.

Results

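The 10 genes described here carry, store, release and sense iron, and each was present as 1 row of a gene expression table of 33298 genes. They were chosen by name: the ferritin chains Fth1 and Ftl1, the ferritin receptor Ncoa4, the iron chaperones Pcbp1 and Pcbp2, the importers Tfrc and Slc11a2, the exporter Slc40a1, and the sensors Ireb2 and Aco1. Expression was measured by RNA sequencing of hematopoietic stem cells (HSCs) from mouse bone marrow in 2 groups, both at 12 weeks of age and in homeostasis. The control group, Dek_fl, had floxed Dek alleles on both chromosomes (Dek fl/fl) and 4 libraries. The knockout group, Dek_cKO, had the same floxed alleles together with Tie2-Cre and 3 libraries. Tie2-Cre is a recombinase transgene active in endothelial and hematopoietic cells, so deletion was not limited to HSCs, and the controls carried the floxed alleles without Cre. About 800 cells per library were sorted as Lin-Sca-1+c-Kit+CD48-CD150+ and their polyadenylated RNA was amplified with a kit for low input. The labels do not say whether the libraries are from different animals, and p-values therefore measure only the spread between libraries, which may be technical. DEK is a protein that binds chromatin.

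Cells take up iron bound to transferrin through the transferrin receptor, move it out of the endosome, use it for haem and iron-sulphur clusters, and store the excess inside ferritin. The iron regulatory proteins, encoded by Aco1 and Ireb2, bind a short RNA hairpin called the iron-responsive element when iron is scarce. Binding in a 5′ UTR blocks translation, as in the ferritin transcripts, and binding in a 3′ UTR stabilises the transcript, as in Tfrc. In bone marrow, iron demand is highest in the red cell lineage, and recycling macrophages export iron through ferroportin, the product of Slc40a1.

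The elements are shown because they tie the storage, uptake and export genes to the sensors. The search looked for a C, any 5 bases, the loop CAGTGN and 5 bases that pair with the first 5, on the transcript strand alone, in the UTRs of GENCODE M21 protein-coding transcripts (GRCm38). Of 21866 genes searched at their longest coding transcript, 20 (0.0915%) held a match in the 5′ UTR and 118 (0.540%) in the 3′ UTR. The 10 genes were searched in all their coding transcripts, so their matches are not counted in the same way as those rates. Among them, Fth1, Ftl1 and Slc40a1 each held 1 match in the 5′ UTR, and Tfrc held 4 in the 3′ UTR. Each is given as 30 exonic bases, 5′ to 3′ on the transcript strand, with the 6-base loop in capitals. The sites lie at chr19:9982732-9982761 on the plus strand for Fth1, chr7:45459778-45459807 on the minus strand for Ftl1 and chr1:45925464-45925493 on the minus strand for Slc40a1. Those of Tfrc lie on the plus strand at chr16:32631219-32631248, chr16:32631598-32631627, chr16:32631663-32631692 and chr16:32631710-32631739, and are printed in that order.
Fth1: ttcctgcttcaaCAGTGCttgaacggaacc
Ftl1: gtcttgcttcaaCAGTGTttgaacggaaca
Slc40a1: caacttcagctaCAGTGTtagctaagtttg
Tfrc, site 1: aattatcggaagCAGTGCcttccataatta
Tfrc, site 2: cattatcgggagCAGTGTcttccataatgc
Tfrc, site 3: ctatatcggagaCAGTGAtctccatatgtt
Tfrc, site 4: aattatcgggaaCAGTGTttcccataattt
No match was found in Slc11a2, Ireb2, Aco1, Ncoa4, Pcbp1 or Pcbp2, which says only that this pattern is not in the UTRs searched. Among other transcripts known or proposed to carry such an element, Alas2 matched in the 5′ UTR and Cdc42bpa, among others, did not, so the pattern does not find every proposed element.

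Values were FPKM as deposited, which divides the fragments of a gene by its length and the depth of the library. Levels can thus be set side by side between genes only as far as the lengths used are right. The values fitted 866 bases for Fth1 and 2868 for Pcbp2, below their longest transcripts of 2062 and 3222. The order of levels and the ratios between genes depend on these lengths. The library totals recovered from the values ran from 4209152 to 26951515 reads in Dek_fl and from 4422645 to 12540431 in Dek_cKO. Reads carried no molecular identifiers that are stated, so amplified copies are not independent molecules. Dek itself read 77.0, 118, 143 and 26.0 FPKM in Dek_fl replicates 1 to 4, and 9.60, 8.40 and 12.7 in Dek_cKO replicates 1 to 3. The last of these stands for 405.8 reads where the other 6 are whole. This value, and with it the deletion, is therefore unsure in the library labelled Dek_cKO replicate 3. A value that is not whole shows neither the size nor the direction of any error, and neither was tested. As deposited, an exact permutation test of Dek on the log2 scale, two-sided over all 35 splits, gave p = 0.0571, and 0.0286 is the smallest p the design allows. Kit, Ly6a, Procr, Hlf and Meis1, markers of HSCs, were at 14.3 FPKM or more in all libraries. Mllt3 ran from 0.984 to 24.0 FPKM, Mecom from 0 in Dek_cKO replicate 1 to 11.6, Fgd5 was under 1 FPKM in 5 libraries, and Slamf1, which encodes the CD150 of the sort, reached at most 1.80 FPKM. Cd48, whose protein the sort excluded, ranged from 4.10 to 206 FPKM in Dek_fl and from 7.82 to 135 in Dek_cKO. The neutrophil precursor gene Elane was at 984 FPKM in Dek_fl replicate 2 and 5393 in Dek_cKO replicate 3, against at most 133 in the other libraries. Dek_fl replicate 4 stood apart, with 8575 genes above 0 against 14291 to 19950 in the others, although Dek_fl replicate 1 had fewer reads.

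The 10 genes spanned a wide range of levels. By median over the 7 libraries the order was Ftl1 (2500.0 FPKM), Fth1 (2011), Pcbp1 (257), Pcbp2 (50.9), Ncoa4 (28.0), Ireb2 (9.77), Tfrc (5.29), Aco1 (3.25), Slc11a2 (1.85) and Slc40a1 (0.423). Some steps in this order held in each library and others did not. Fth1 was above Pcbp1, and Pcbp1 above Pcbp2, in 7 of 7 libraries. Ftl1 was above Fth1 in 5 of 7, Ncoa4 above Ireb2 in 4, Ireb2 above Tfrc in 4, Tfrc above Aco1 in 5 and Aco1 above Slc11a2 in 4. The order of these neighbours thus changed between libraries, and differences between genes were not tested. The steps with Tfrc use its values as deposited. Only Ftl1, Fth1, Pcbp1, Pcbp2 and Tfrc were at 1 FPKM or more in all 7 libraries.

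**Figure D1:**
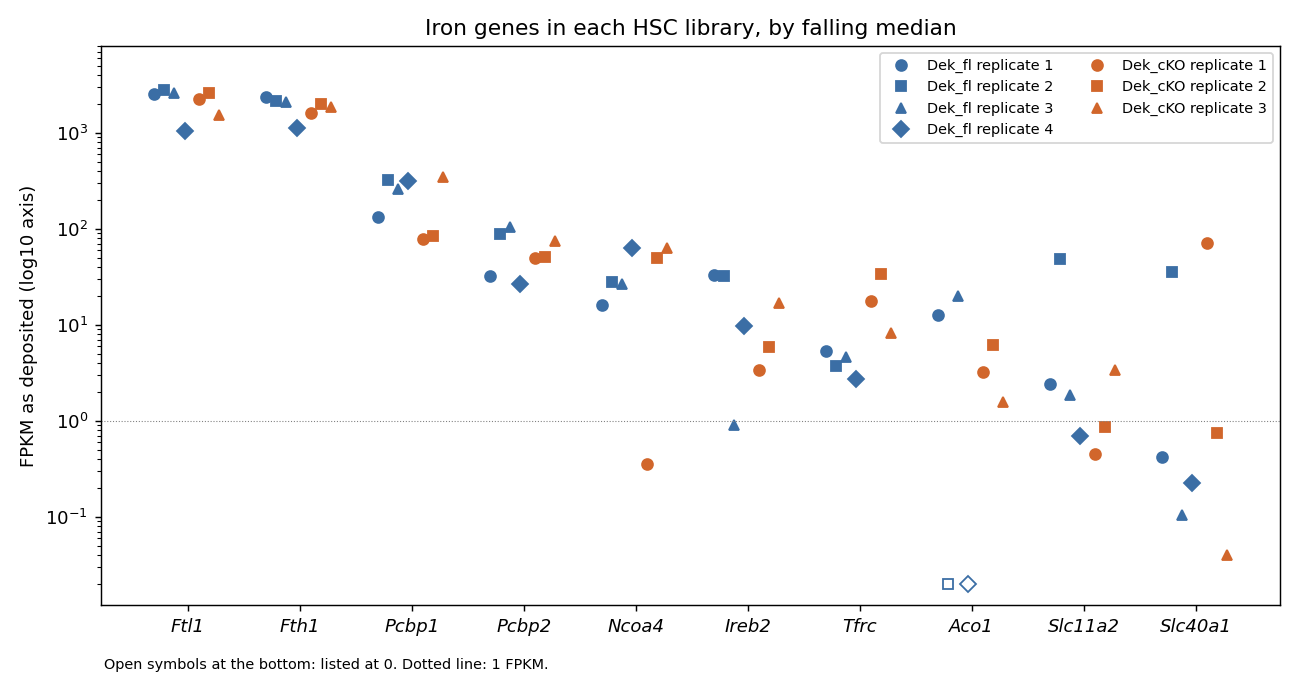
FPKM of the 10 iron genes in each library on a log10 axis, ordered by falling median, with 1 symbol per library (blue, Dek_fl, n = 4; orange, Dek_cKO, n = 3). Both ferritin genes sit at 1036 FPKM or more in each library, Slc11a2 and Slc40a1 have single high libraries, and the open symbols mark Aco1 listed at 0 in 2 Dek_fl libraries.

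Ferritin transcripts were abundant in both groups, and no difference between groups was detected. Fth1, ENSMUSG00000024661 on chromosome 19 from 9980598 to 9985098 (plus strand), encodes the heavy chain that oxidises iron for storage. It stood at 2351, 2149, 2066 and 1113 FPKM across the Dek_fl libraries and at 1594, 2011 and 1832 across Dek_cKO. The low library was Dek_fl replicate 4, the one with the fewest genes above 0, and the Dek_cKO values lay inside the control range that it extends. Without it the log2 fold change was -0.28. The control mean was 1919 ± 551 FPKM (SD, n = 4) and the Dek_cKO mean 1813 ± 209 (SD, n = 3), with a log2 fold change of -0.03 (SE 0.340; 95% interval -0.74 to 0.68).

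Ftl1, ENSMUSG00000050708 on chromosome 7 from 45457944 to 45459884 (minus strand), encodes the light chain, which helps the iron core form. It stood at 2500.0, 2771, 2602 and 1036 FPKM across the Dek_fl libraries and at 2263, 2595 and 1523 across Dek_cKO. Dek_fl replicate 4 was again the lowest, followed by Dek_cKO replicate 3, and without the former the log2 fold change was -0.34. The log2 fold change was -0.00 (SE 0.369; 95% interval -0.77 to 0.77), with a control mean of 2227 ± 802 FPKM (SD, n = 4) and a Dek_cKO mean of 2127 ± 549 (SD, n = 3). The sign of the Ftl1 difference turned positive after TPM rescaling and median-of-ratios scaling, and that of Fth1 after TPM rescaling. In bulk RNA of this kind, fewer cells of a type and less RNA per cell cannot be told apart. Reads of near copies may have been shared: Ftl1-ps1, a copy of Ftl1 in the table, stood at 45.0 to 84.2 FPKM.

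Both chains were among the leading transcripts of these cells. Fth1 ranked between 12th and 39th of all genes by FPKM, and Ftl1 between 7th and 43rd, with the lowest rank of each in Dek_fl replicate 4. Together they took 0.317% to 0.947% of all FPKM in Dek_fl and 0.463% to 0.880% in Dek_cKO. The ratio of Fth1 to Ftl1 was 0.940, 0.775, 0.794 and 1.07 in Dek_fl and 0.704, 0.775 and 1.20 in Dek_cKO. Heavy chain FPKM exceeded light chain FPKM only in Dek_fl replicate 4 and Dek_cKO replicate 3. The exact permutation test of the log2 ratio, two-sided over 35 splits, gave p = 0.886.

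The ferritin genes were also among the steadiest genes measured, which sets the precision of this comparison. The SD of log2(FPKM + 1) over the 7 libraries was 0.36 for Fth1 and 0.53 for Ftl1, against a median of 1.52 over all 10260 genes tested, and 0.663% and 2.85% of tested genes had a smaller one. Genes of similar level were about as steady: of 13 within 0.5 log2 units of Fth1, 4 had a smaller SD, and of 10 near Ftl1, 6 did.

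Ncoa4 and the chaperones varied more than ferritin, but their levels were lower. Of tested genes of similar level, 69.0% had a smaller SD than Ncoa4, 74.3% than Pcbp1 and 19.3% than Pcbp2. Ncoa4, ENSMUSG00000056234 on chromosome 14 from 32159865 to 32179855 (plus strand), encodes the receptor that takes ferritin to the lysosome for iron release. It stood at 16.2, 28.0, 26.4 and 62.9 FPKM across the Dek_fl libraries and at 0.355, 49.6 and 63.7 across Dek_cKO. A single library, Dek_cKO replicate 1, was low, at 10 reads against 322 to 3781 in the others, and the other Dek_cKO libraries were above at least 3 of the 4 controls. The log2 fold change was -0.89 (SE 1.29) and was 0.91 without Dek_cKO replicate 1.

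Pcbp1, ENSMUSG00000051695 on chromosome 6 from 86524492 to 86526321 (minus strand), encodes an RNA-binding protein that also delivers iron to ferritin. It stood at 134, 321, 257 and 316 FPKM across the Dek_fl libraries and at 79.1, 85.0 and 345 across Dek_cKO. Dek_cKO replicates 1 and 2 were below each control and Dek_cKO replicate 3 was above each of them, so the groups overlapped. The log2 fold change was -0.87 (SE 0.630), with means of 257 ± 87.0 FPKM (SD, n = 4) and 169.8 ± 152.0 (SD, n = 3). It was -0.50 without Dek_cKO replicate 1, -0.55 without Dek_cKO replicate 2 and -1.56 without Dek_cKO replicate 3.

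Pcbp2, ENSMUSG00000056851 on chromosome 15 from 102470539 to 102500061 (plus strand), encodes the paralogue that receives iron from importers such as the product of Slc11a2. It stood at 32.4, 87.2, 104 and 26.5 FPKM across the Dek_fl libraries and at 50.0, 50.9 and 74.6 across Dek_cKO, inside the control range. Its log2 fold change was 0.11 (SE 0.817), with means of 62.6 ± 39.0 FPKM (SD, n = 4) and 58.5 ± 14.0 (SD, n = 3). Pcbp1 exceeded Pcbp2 in each library, by 2.47 to 11.9 times in Dek_fl and by 1.58 to 4.63 times in Dek_cKO.

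Tfrc was the one gene of the 9 tested whose groups did not overlap as deposited, where 4.94% of all tested genes did not (2.86% higher and 2.09% lower in Dek_cKO), and this separation rested on values of uncertain library. Tfrc, ENSMUSG00000022797 on chromosome 16 from 32608920 to 32632794 (plus strand), encodes the receptor that takes up transferrin-bound iron. Its deposited values were 5.29, 3.75, 4.61 and 2.71 FPKM for the Dek_fl libraries, against 17.5, 34.1 and 8.14 for Dek_cKO. Each Dek_cKO library was above each control. The means were 4.09 ± 1.12 FPKM (SD, n = 4) and 19.9 ± 13.2 (SD, n = 3), with a log2 fold change of 1.86 (SE 1.23; 95% interval -0.71 to 4.43), which did not pass the test (limma adjusted p = 0.9999 over all genes, unadjusted p = 0.147).

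Multiplied by its transcript length of 4890 bases and by the library total, an FPKM value gives the reads behind it, and these should be whole numbers. The values of Tfrc were whole in Dek_fl replicate 3 (608 reads), Dek_fl replicate 4 (60.0) and Dek_cKO replicate 3 (499). They were not whole in Dek_fl replicate 1 (108.9), Dek_fl replicate 2 (286.7), Dek_cKO replicate 1 (510.4) and Dek_cKO replicate 2 (737.96). Read with the total of the same-numbered library of the other group, those 4 values were whole.

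With those pairs of Tfrc values exchanged, the library Dek_fl replicate 1 had 361 reads and 17.5 FPKM, and Dek_cKO replicate 1 had 154 reads and 5.29 FPKM. Dek_fl replicate 2 then had 2612 reads and 34.1 FPKM, and Dek_cKO replicate 2 had 81.0 reads and 3.75 FPKM. The groups then overlapped, with a control mean of 14.7 ± 14.5 FPKM (SD, n = 4) and a Dek_cKO mean of 5.72 ± 2.23 (SD, n = 3). The log2 fold change turned to -0.73 (SE 1.29; limma adjusted p = 0.9999). Over the table, 7018 genes had at least 30 reads in at least 5 libraries, 6976 of them (99.4%) were whole in each library, and Tfrc was among 24 genes in which such pairs were found. Those genes held 52 pairs, each joining a Dek_fl and a Dek_cKO column with the higher value in the Dek_cKO column, and 27 of the 52 joined the same replicate number. The reason is not known from the labels, and no direction for Tfrc is taken from these values.

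**Figure D2:**
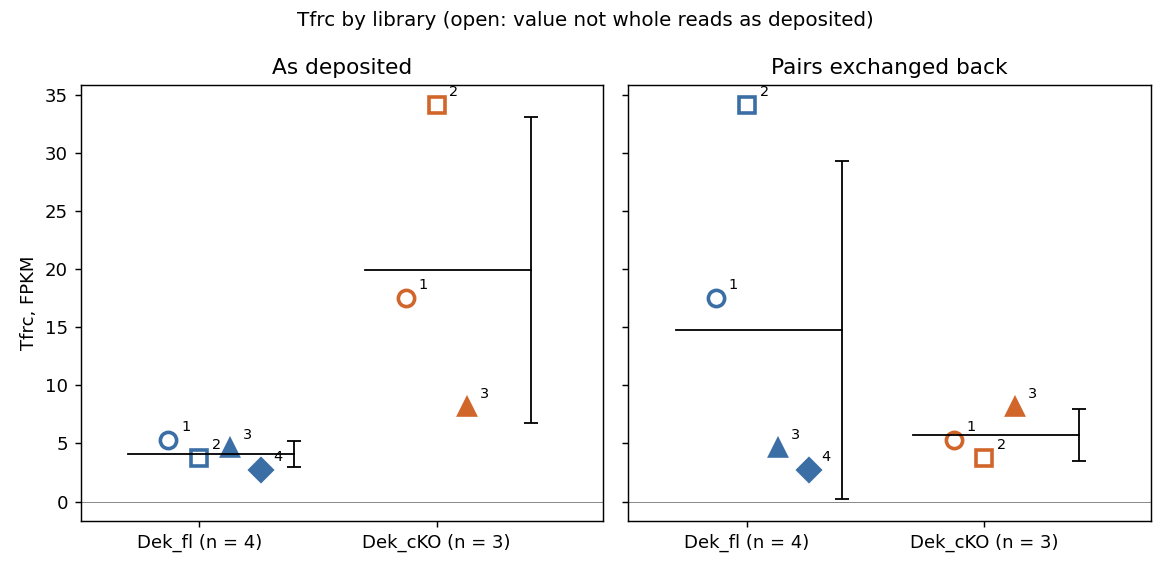
Tfrc in FPKM by library, as deposited (left) and with its 2 pairs exchanged back (right), numbered by replicate, with group means as lines and SD as bars; open symbols are values that are not whole reads as deposited. As deposited the Dek_cKO libraries (8.14 to 34.1) stand above the Dek_fl libraries (2.71 to 5.29), and after the exchange the groups overlap.

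Markers of red cell precursors, which carry much transferrin receptor, were present in both groups, at levels that differed between markers and libraries. The summed FPKM of 12 erythroid markers ran from 101 to 254 in Dek_fl and from 38.7 to 156 in Dek_cKO. Alas2 was listed at 0 in 5 libraries, while Hbb-bt ran from 12.3 to 116 FPKM over all libraries. Car1 ran from 0 to 76.6 FPKM and Klf1 from 0.21 to 70.6. No marker of this list separated the groups, where 4.94% of all tested genes did. The part of these markers in the Tfrc values was not tested.

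Slc11a2 and Slc40a1 were each high in single libraries. Slc11a2, ENSMUSG00000023030 on chromosome 15 from 100387898 to 100425072 (minus strand), encodes DMT1, which moves iron out of the endosome. It stood at 2.42, 48.8, 1.85 and 0.701 FPKM across the Dek_fl libraries and at 0.457, 0.871 and 3.38 across Dek_cKO. Only Dek_fl replicate 2 was high, with 3371 reads against 12 to 220.0 in the others, and the remaining controls overlapped Dek_cKO. The log2 fold change was -1.23 (SE 1.33) and was -0.16 without Dek_fl replicate 2. The summed FPKM of 8 neutrophil markers was 1708 in Dek_fl replicate 2 and 7434 in Dek_cKO replicate 3, where Slc11a2 read 3.38, and their part in the Slc11a2 values was not tested.

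Slc40a1, ENSMUSG00000025993 on chromosome 1 from 45908068 to 45926523 (minus strand), encodes ferroportin, the cellular iron exporter. It stood at 0.423, 35.2, 0.104 and 0.225 FPKM across the Dek_fl libraries and at 71.5, 0.748 and 0.0406 across Dek_cKO. It was high in 1 library of each group, Dek_fl replicate 2 with 2165 reads and Dek_cKO replicate 1 with 1671, and had between 2 and 13 reads in the other 5. With 2 libraries at 1 FPKM or more it did not enter the main test, and without the filter its log2 fold change was 0.82 (SE 1.62; limma adjusted p = 0.843 over 33097 genes).

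Macrophages are the marrow cells best known for Slc40a1, and their markers are given beside it. The summed FPKM of 12 macrophage markers was 85.2 in Dek_fl replicate 2 and 42.3 in Dek_cKO replicate 1. Over the groups it ran from 84.0 to 311.0 in Dek_fl and from 42.3 to 46.8 in Dek_cKO. The sums thus did not overlap, and their difference was not tested. Of the 12 markers taken singly, 0 separated the groups, where 4.94% of all tested genes did. The complement genes were the highest of the list, with C1qa up to 58.9, C1qb up to 182 and C1qc up to 101 FPKM, while Adgre1 was listed at 0 in 6 libraries and Csf1r was under 1 FPKM in each. In Dek_fl replicate 2 Adgre1 stood at 5.39, C1qa at 46.6, C1qb at 14.9 and C1qc at 12.3 FPKM. In Dek_cKO replicate 1 Adgre1 and C1qa were listed at 0, C1qb stood at 2.01 and C1qc at 36.7 FPKM. The part of macrophage RNA in the Slc40a1 values was not tested.

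The sensors were low and uneven, as were genes of similar level. Of tested genes within 0.5 log2 units, 35.2% had a smaller SD than Ireb2 and 49.0% than Aco1. Ireb2, ENSMUSG00000032293 on chromosome 9 from 54863789 to 54912530 (plus strand), encodes IRP2, which is degraded when iron is plentiful. It stood at 33.3, 32.2, 0.907 and 9.77 FPKM across the Dek_fl libraries and at 3.38, 5.88 and 16.9 across Dek_cKO. Dek_fl replicates 1 and 2 were the highest and Dek_fl replicate 3 the lowest, so the control group alone spanned 36.7-fold and enclosed each Dek_cKO value. The log2 fold change was -0.60 (SE 1.35), and it was 0.91 by voom on the recovered reads.

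Aco1, ENSMUSG00000028405 on chromosome 4 from 40143081 to 40198338 (plus strand), encodes IRP1, which is an aconitase when it holds an iron-sulphur cluster and an RNA-binding protein when it does not. It stood at 12.6 FPKM in Dek_fl replicate 1 and 19.8 in Dek_fl replicate 3, and was listed at 0 in Dek_fl replicates 2 and 4. In Dek_cKO it stood at 3.25, 6.14 and 1.58 FPKM. The Dek_cKO values lay between the high and the 0 values of the controls, and the log2 fold change was 0.06 (SE 1.38), and it was -0.62 when either of the controls listed at 0 was left out, and -0.31 without Dek_cKO replicate 2. It was 1.38 with a pseudocount of 0.1 and 2.38 by voom on the recovered reads (SE 2.67).

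No difference between groups was detected for any of the 9 genes tested. By limma on log2(FPKM + 1), 0 of the 9 passed an adjusted p of 0.05, and 0 of all 10260 genes did (0%), with 0 of the 9 and 404 of all genes (3.94%) at an unadjusted p under 0.05. By voom on the recovered reads, 0 genes passed the adjusted p and 548 had an unadjusted p under 0.05. Groups did not overlap in 1 of the 9, Tfrc, and in 507 of all genes, 293 of them higher and 214 lower in Dek_cKO. Of the 9, 3 had a positive and 6 a negative log2 fold change, with a median of -0.03 beside 0.05 over all genes. The SE of the fold change ran from 0.340 for Fth1 to 1.38 for Aco1 on the log2 scale, so the interval was narrowest for ferritin and left several-fold changes of the sensors and importers undetectable in these libraries.

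**Figure D3:**
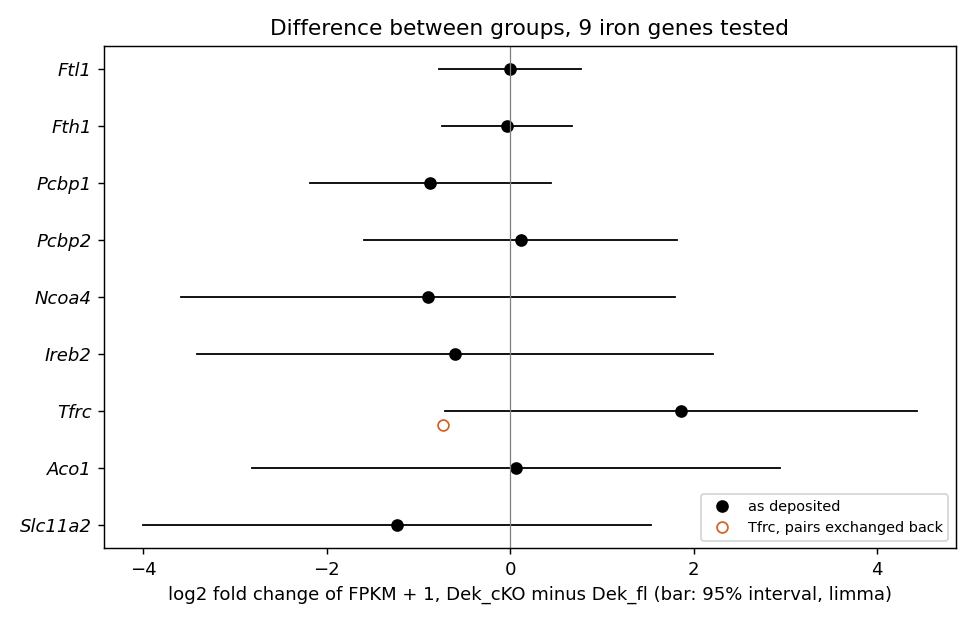
Log2 fold change of FPKM + 1, Dek_cKO minus Dek_fl, of the 9 iron genes tested, with the 95% interval from limma as a bar; the open orange symbol is Tfrc with its pairs exchanged back, shown without its interval. Each interval includes 0, and the intervals of Fth1 and Ftl1 are the narrowest.

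The genes whose profile over the 7 libraries was most like 3 of these genes were taken from the 6301 tested genes whose mean reached 10 FPKM. Likeness was the root-mean-square difference of log2(FPKM + 1) after each gene was centred on its own mean. Nearest to Fth1 were Selenof, a selenoprotein of the endoplasmic reticulum (0.16), Gm10819 (0.17) and Pfn1, which encodes the actin-binding profilin (0.18). Nearest to Ftl1 were Gm4617 (0.14), Bzw1 (0.19) and the translation factor Eif5a (0.22). Fth1 and Ftl1 differed from each other by 0.26, the smallest difference among the pairs of the 10 genes. For Tfrc as deposited, the nearest were Selenos (0.43), the kinase gene Camk2d (0.45) and Yme1l1, a protease of the inner mitochondrial membrane (0.51), and these were not computed with its pairs exchanged.

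Other genes of iron handling were taken from 7 lists. Of 98 symbols listed, older and newer names of the same gene included, 84 were found in the table and 59 were tested. None passed an adjusted p of 0.05 by limma. At an unadjusted p under 0.05, 2 were higher in Dek_cKO (3.39%, against 2.12% of all genes) and 3 lower (5.08%, against 1.81%). The higher count was 1 when any of the Dek_cKO libraries was left out, and the lower count was 1 without Dek_cKO replicate 2 and 5 without Dek_cKO replicate 3. Their median log2 fold change was 0.08 beside 0.05 over all genes, and groups did not overlap in 3 of the 59 (5.08%, against 4.94%). Of 47 of these genes with enough reads to be assessed, 0 had values that were not whole.

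Haem synthesis, transport and breakdown, 16 genes tested, held 1 gene at that level in each direction. Alas1, the first and rate-limiting enzyme of haem synthesis outside red cells, stood at 1.19, 0.357, 16.5 and 0 FPKM across the Dek_fl libraries and at 44.2, 26.3 and 84.8 across Dek_cKO. Each Dek_cKO library was above each control, with a log2 fold change of 4.14 (SE 1.34; unadjusted p = 0.00573, limma adjusted p = 0.9999). Pgrmc1, a haem-binding membrane protein, stood at 70.2, 189.5, 212 and 82.1 FPKM across the Dek_fl libraries and at 27.5, 16.9 and 37.2 across Dek_cKO. Its groups did not overlap either, with means of 138 ± 72.7 FPKM (SD, n = 4) and 27.2 ± 10.2 (SD, n = 3) and a log2 fold change of -2.21 (SE 0.776; unadjusted p = 0.00996, limma adjusted p = 0.9999).

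Mitochondrial iron and iron-sulphur cluster genes, 22 tested, had 0 higher and 1 lower at that level. The lower gene, Slc25a28, encodes mitoferrin 2, which brings iron into mitochondria. It stood at 54.1, 28.4, 30.3 and 15.5 FPKM across the Dek_fl libraries and at 4.44, 0 and 6.32 across Dek_cKO, without overlap, with a log2 fold change of -3.15 (SE 1.25; unadjusted p = 0.0203, limma adjusted p = 0.9999). Glrx5, a carrier of iron-sulphur clusters, had a log2 fold change of -1.87 (SE 1.03), which was -0.24 without Dek_cKO replicate 2.

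Cytosolic iron-sulphur assembly genes and chaperones, 12 tested, had 0 higher and 1 lower, Nubp2, a scaffold of that assembly. It stood at 11.8, 101, 92.8 and 170.0 FPKM across the Dek_fl libraries and at 0.470, 0 and 80.8 across Dek_cKO, with overlap and a log2 fold change of -3.77 (SE 1.43; unadjusted p = 0.0155, limma adjusted p = 0.9999). It was -2.62 without Dek_cKO replicate 2 and -5.80 without Dek_cKO replicate 3. Fam96b, of the same machinery, had 1.51 (SE 0.956).

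Uptake, reduction and carriage genes, 3 of 12 tested, had 1 higher, Tfr2, a second transferrin receptor that senses iron-loaded transferrin. It stood at 48.6, 27.0, 2.48 and 1.94 FPKM across the Dek_fl libraries and at 70.0, 47.3 and 76.4 across Dek_cKO. Dek_fl replicate 1 was above Dek_cKO replicate 2, and the log2 fold change was 2.56 (SE 1.19; unadjusted p = 0.0445, limma adjusted p = 0.9999). Leaving out Dek_fl replicate 4 gave 1.93, and leaving out Dek_fl replicate 1 gave 3.28. Mcoln1, an iron-permeable lysosomal channel, had 1.30 (SE 1.09) and was 0.55 without Dek_cKO replicate 3. The one tested gene of the export list, the haem exporter Flvcr1, had 0.30 (SE 1.42). In the list of regulators and other transcripts known or proposed to carry the element, 4 were tested and 0 were at that level, with Cdc42bpa at -1.12 (SE 1.33) and Fbxl5, which directs IRP2 to degradation, at -0.92 (SE 1.27). Ftl1-ps1, the one near copy tested, had 0.04 (SE 0.734).

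**Figure D4:**
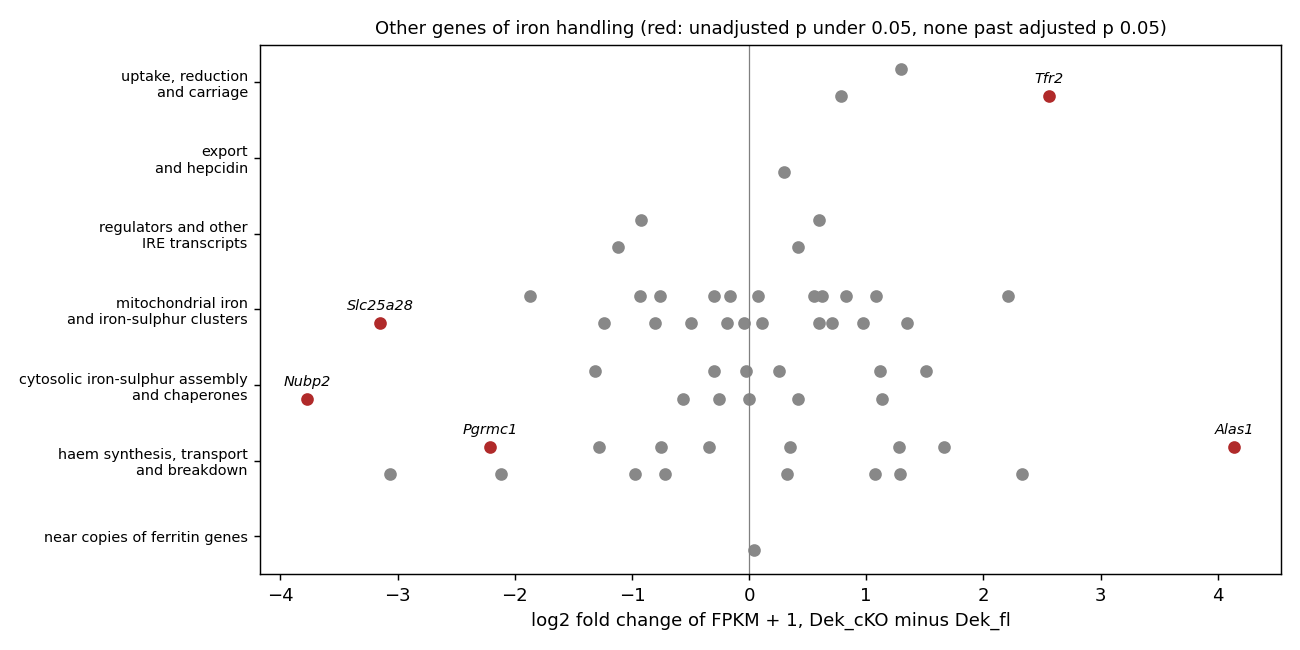
Log2 fold change of FPKM + 1, Dek_cKO minus Dek_fl, of the other tested genes of iron handling in 7 lists, 1 point per gene, spread vertically for legibility only; red points have an unadjusted p under 0.05. The 5 red genes are Tfr2 and Alas1 on the higher side and Slc25a28, Nubp2 and Pgrmc1 on the lower side, and none passed the adjusted threshold.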

How the data were processed

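The single deposited table held FPKM, with 1 column per library, as the authors made them. Groups and replicate numbers came from the sample titles, and 0 columns were left unmapped. The tools named are Cufflinks 2.1.1, HTSeq and Bowtie 0.12.9 with build mm10, per the submitters' processing notes, and their roles, the annotation and any use of strand are not stated. All 4 control libraries were used, although the series mentions triplicates.

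FPKM are not counts, so genes reaching 1 FPKM in 3 or more libraries were tested with limma 3.58.1 (R 4.3.3) on log2(FPKM + 1), group alone, with trend and robust moderation. Two-sided p-values were adjusted over all 10260 genes (Benjamini-Hochberg). Fold changes are on that scale, which understates low genes. Positions are whole genes of GENCODE M21 (GRCm38). Overlapping genes and near copies may share reads.

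Reads were recovered as FPKM times length times library total, and called whole if within 0.003 reads beyond what rounding at 4 decimals allows. The length was the longest annotated transcript, or otherwise a length up to 3 times that which made each value whole (866 bases for Fth1, 2868 for Pcbp2). Pairs had at least 10 reads in each value. Both steps were tried on reads simulated at the longest transcript lengths, with values exchanged between the same pair of libraries throughout. Other lengths and other pairs of libraries were not covered. Alternatives chosen after seeing the data were the exchange of pairs and voom on recovered reads.

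The members and lists were chosen with earlier results of these data known. Named were the 10 genes, Dek, the 2 tested genes of smallest p in each list and the 3 genes most like Fth1, Ftl1 and Tfrc. Figures used Python 3.11.15 and matplotlib 3.10.9. Some genes of these lists are not reported here.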

Additional observations from a re-analysis of the deposited data

Results flagged for a closer look

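In 6 of the 26 measures examined (23.1%), 1 of the 4 Dek_fl libraries stood far from the other three by the gap between it and its nearest neighbour. Under a normal spread chance gives about 1 in 20, but FPKM are skewed, and 1747 of all 10260 tested genes (17%) met the same criterion. Slc40a1 at 35.2 FPKM and Slc11a2 at 48.8 FPKM were both highest in Dek_fl replicate 2. Ftl1 was lowest in Dek_fl replicate 4, at 1036 FPKM. Alas1 at 16.5 FPKM and Mcoln1 at 6.31 FPKM were highest in Dek_fl replicate 3. Glrx5 was highest in Dek_fl replicate 1, at 226 FPKM.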

How the results depend on the processing

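No alternative called any gene of the 10 or of the 7 lists, and the count of genes past the adjusted threshold was 0 under each of the 18. Replicate numbers did not pair the libraries: deviations of same-numbered libraries correlated at -0.03, -0.07 and 0.04 across genes. A replicate block also removes Dek_fl replicate 4, which has no partner, and gives these genes the fold changes of leaving that library out: Aco1 turned to -0.62, Pcbp2 to -0.21, Flvcr1 to -0.43 and Ftl1-ps1 to -0.12. Unadjusted p was under 0.05 in 404 genes, in 509 with the block and in 552 without that library, and the median of all genes was -0.11 in both of the latter. TPM rescaling turned Fth1 to 0.036 and Ftl1 to 0.067, and median-of-ratios scaling turned Ftl1 to 0.021. Array weights turned Aco1 to -0.47, Pcbp2 to -0.18, Flvcr1 to -0.29 and Ftl1-ps1 to -0.14. Voom on the recovered reads turned Ireb2 to 0.91, Pcbp2 to -0.30 and Ftl1-ps1 to -0.21. It kept the sign of ferritin, with -0.16 (SE 0.247) for Fth1 and -0.41 (SE 0.262) for Ftl1, the lowest value of Ftl1 under any alternative. The exchange of pairs turned Tfrc to -0.73. The cause of the turns under other scalings, weights and voom was not tested. Leaving out 1 library gave ranges of -0.28 to 0.083 for Fth1, -0.34 to 0.22 for Ftl1, -0.62 to 0.84 for Aco1, -1.88 to 0.91 for Ncoa4, -0.21 to 0.43 for Pcbp2, -0.54 to 1.32 for Flvcr1, -1.85 to 0.41 for Fbxl5 and -0.12 to 0.17 for Ftl1-ps1. Tfrc as deposited ran from 1.38 to 2.35, Slc11a2 from -1.78 to -0.16, Ireb2 from -1.50 to -0.11 and Pcbp1 from -1.56 to -0.50. The pathway genes at an unadjusted p under 0.05, 2 higher and 3 lower, were 1 higher without a filter on low values, and ran from 1 to 2 higher and from 1 to 5 lower when 1 library was left out. Slc40a1 had between 2 and 13 reads in 5 libraries, the deepest one included, so its low values are imprecise.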
